A study of Mus musculus with 10 samples.

Results

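The factors described here are 8 transcription factor genes of the primitive streak and the mesoderm that newly leaves it: *T* (Brachyury), *Mixl1*, *Eomes*, *Mesp1*, *Mesp2*, *Evx1*, *Tbx6* and *Msgn1*. They were chosen by name, as known factors of that tissue, but with earlier results of these data known. Counts of them beside a background are therefore descriptions. They are 8 of the 27998 genes of the E14Tg2a table and 8 of the 32285 genes of the R1 table. *T* is also among the genes that the study chose for PGCLC, and *T* and *Eomes* are among those that it chose for EpiSC, so their direction in those cells is not independent evidence.

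The primitive streak is the furrow at the posterior of the gastrulating embryo through which epiblast cells leave to form mesoderm and endoderm. BMP4 from the extraembryonic ectoderm, WNT3 and NODAL induce it, and T-box and homeobox factors then switch on the mesoderm genes. Primordial germ cells arise from the proximal posterior epiblast under the same BMP4 and WNT signals, and their precursors transiently express streak factors such as *T*.

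Droplet-based scRNA-seq was performed with a 3′ kit that counts unique molecular identifiers (UMIs), in 10 libraries of mouse cells from 2 male ESC lines. The 8 libraries of wild type E14Tg2a cells (kit version 2) were ESC in 2i medium plus LIF (2i ESC), ESC in serum plus LIF (S+L ESC), epiblast-like cells after 1, 2 and 3 days with Activin A, bFGF and KSR (d1, d2 and d3 EpiLC), epiblast stem cells passaged in Activin A and bFGF (EpiSC), and embryoid bodies after 2 and 4 days with BMP4, SCF, LIF and EGF (d2 and d4 EB), in which primordial germ cell-like cells (PGCLC) form. The 2 libraries of R1 cells (kit version 3) were d4 EB of wild type cells (R1 WT) and of *Mll3/4* dCD cells, a clonal line in which point mutations leave MLL3 and MLL4 without catalytic activity. Each condition had 1 library, so there is no replicate check, no test was run and intervals, all at 95%, cover counting error only.

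The libraries held 8757170 to 22887974 UMIs, with medians of 21658 to 36750 UMIs per cell in E14Tg2a and of 11751 to 13187.5 in R1. Of 2774 barcodes in E14Tg2a, 8 occurred in more than 1 library, and none of 3115 did in R1. The study lists 91 PGCLC among the 537 cells of d2 EB and 44 among the 368 cells of d4 EB. It found them by clustering the same cells, so what sets them apart from the other EB cells is a description. The 6 PGC markers summed to 455 counts per 1000000 UMIs (CPM) in the listed d2 PGCLC against 43.2 in the other d2 EB cells, and to 407 against 51.7 CPM at d4. *Kmt2c* and *Kmt2d*, which encode MLL3 and MLL4, were read in both R1 libraries, but point mutations keep the transcripts and their levels check nothing.

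Of the 8 factors, 7 had promoter entries in the RefSeq table of GRCm38.p6. The 250 bases before the start of *T*, *Evx1* and *Eomes* are shown because *T* and *Evx1* were read in both EpiSC and d2 EB while *Eomes* was read in EpiSC with almost none in d2 EB. The windows were chr17:8434173-8434422 for *T*, chr6:52313248-52313497 for *Evx1* and chr9:118477939-118478188 for *Eomes*, all on the plus strand. Capitals mark the letters CTTTGA of the TCF/LEF motif, AGGTGT of the T-box half-site or TATAAA of the TATA box, searched on both strands.
T: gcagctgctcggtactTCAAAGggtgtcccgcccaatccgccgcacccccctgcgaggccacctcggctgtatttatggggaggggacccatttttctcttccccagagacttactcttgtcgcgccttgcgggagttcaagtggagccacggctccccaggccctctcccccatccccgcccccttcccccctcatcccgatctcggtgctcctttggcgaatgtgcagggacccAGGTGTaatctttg
Evx1: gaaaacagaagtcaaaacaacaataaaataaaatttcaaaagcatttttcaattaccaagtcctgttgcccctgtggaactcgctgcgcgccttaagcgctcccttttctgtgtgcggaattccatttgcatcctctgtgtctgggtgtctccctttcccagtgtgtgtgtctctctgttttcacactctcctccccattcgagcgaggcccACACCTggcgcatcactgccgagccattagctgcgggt
Eomes: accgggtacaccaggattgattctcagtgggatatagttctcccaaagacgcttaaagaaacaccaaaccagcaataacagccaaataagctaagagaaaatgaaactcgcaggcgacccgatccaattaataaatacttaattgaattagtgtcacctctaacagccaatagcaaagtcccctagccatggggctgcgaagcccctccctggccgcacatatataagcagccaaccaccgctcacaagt
The *T* window held the TCF/LEF letters on the opposite strand, 234 bases before the start, and the T-box letters at 14 bases. The *Evx1* window held the T-box letters on the opposite strand at 38 bases, and none of these exact letters was found in the *Eomes* or *Mesp2* window. Variant forms of the motifs, such as a TATA box with other letters, were not searched. Of the other windows, *Mesp1* held the TCF/LEF letters at 31 and 72 bases and the T-box letters at 233 bases, *Msgn1* held the TCF/LEF letters at 143 and 202 bases, and *Tbx6* held the TATA box at 43 bases. The RefSeq start of *Mesp1* lies 198 bases inside the gene as annotated in GENCODE, so its TCF/LEF letters lie within that gene. The matches did not overlap each other. Of 32851 mouse promoters of the same length, 13.8% held the TCF/LEF letters, 11.8% the T-box letters and 12.4% the TATA box, so a match is a description and not a binding site. *Mesp1* (chr7:79792241-79793788, minus strand) and *Mesp2* (chr7:79810727-79813439, plus strand) are neighbors that lie 16939 bases apart in GRCm38. *Evx1* and *Eomes* overlap genes on the opposite strand, *Evx1os* and *Gm33460*.

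Across E14Tg2a the 8 factors summed to between 3.62 and 5.84 CPM in the ESC and EpiLC libraries, to 136 CPM in EpiSC, to 197 CPM in d2 EB and to 4.69 CPM in d4 EB. Most of their UMIs thus came from EpiSC and d2 EB. *T* and *Mixl1* were high in both, *Eomes* mainly in EpiSC and *Mesp1* mainly in d2 EB. *Evx1* was read in both but stood at 27.4 CPM in d2 EB and 4.78 CPM in EpiSC.

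**Figure D1:**
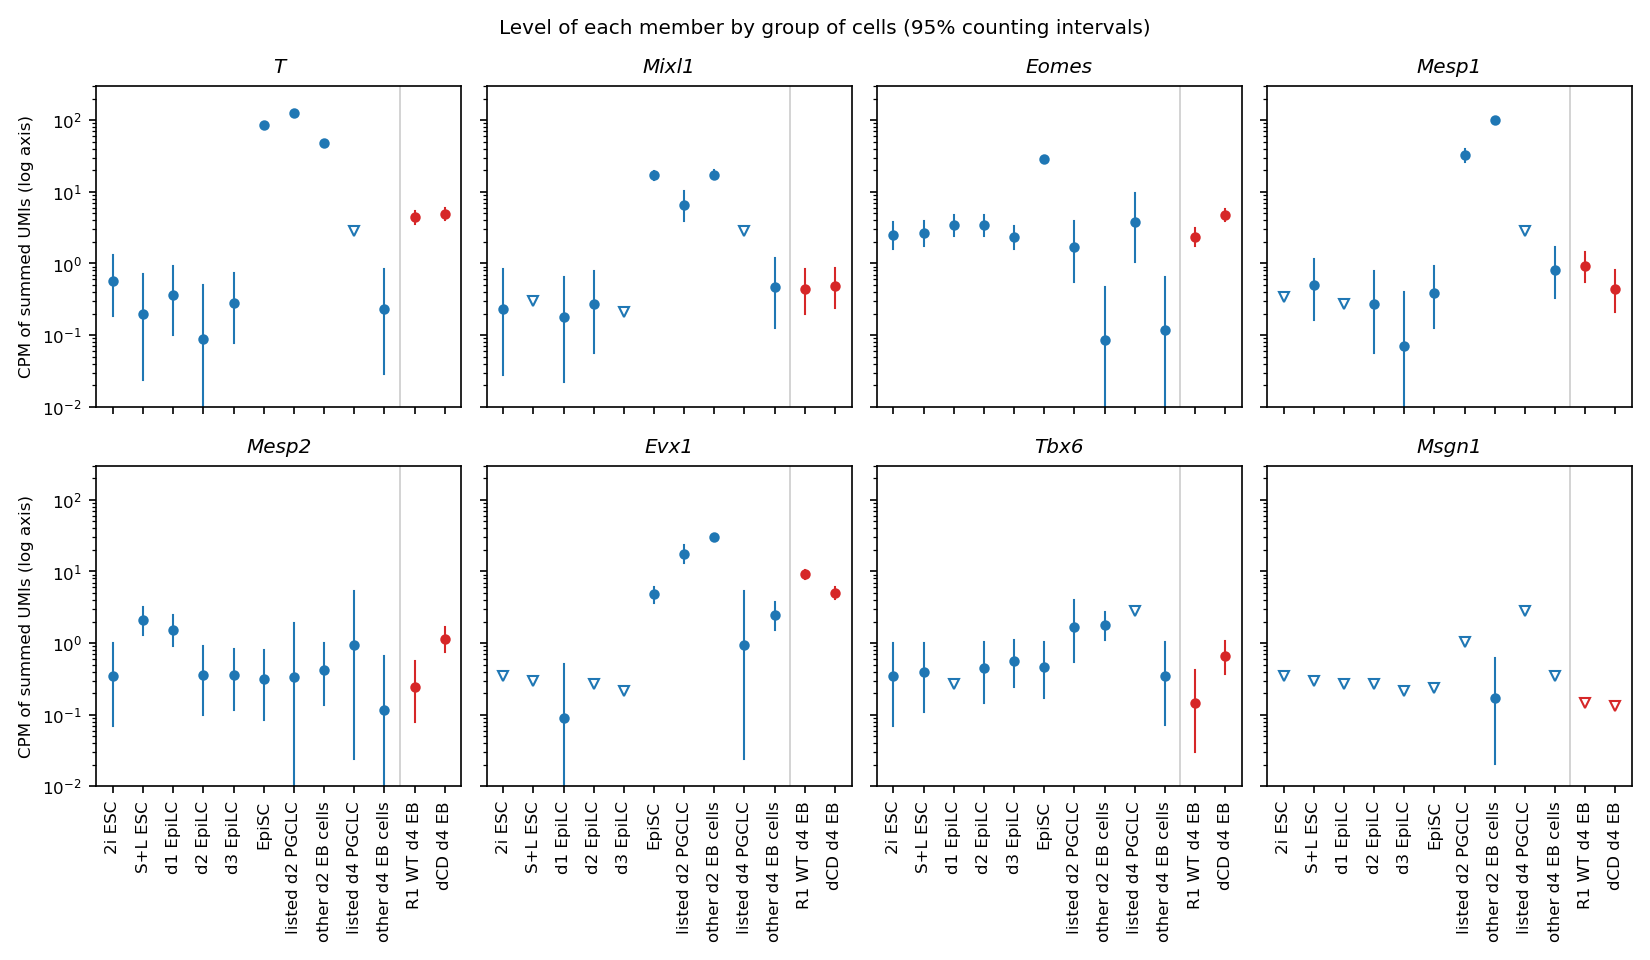
Level of each factor, in CPM of the summed UMIs on a log axis, in 10 groups of E14Tg2a cells (blue) and the 2 R1 libraries (red, set apart because the kit differed). Points are levels, vertical lines are 95% counting intervals (cut at 0.01 CPM), and open triangles mark groups with 0 UMIs at the limit that 3 counts set. *T* stood at 84.5 CPM in EpiSC, 127 CPM in listed d2 PGCLC and 47.8 CPM in other d2 EB cells and below 1 CPM in the ESC, the EpiLC and the other d4 EB cells.

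*T*, the T-box factor that drives posterior mesoderm formation, was read at 0.571 CPM in 2i ESC, 0.198 CPM in S+L ESC, 0.364 CPM in d1 EpiLC, 0.0896 CPM in d2 EpiLC and 0.284 CPM in d3 EpiLC. In EpiSC it stood at 84.5 CPM (79.5 to 89.7), in listed d2 PGCLC at 127 CPM (114 to 140.4) and in other d2 EB cells at 47.8 CPM (43.9 to 51.9). These 3 groups were apart from each other and from all others, whereas the ESC and EpiLC libraries and the other d4 EB cells (0.234 CPM) had overlapping neighbors in the order of levels. Listed d4 PGCLC held 0 UMIs, which allows up to 2.84 CPM.

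*Mixl1*, a homeobox factor of the streak, was read at 17.4 CPM (15.1 to 20.0) in other d2 EB cells and at 17.0 CPM (14.8 to 19.4) in EpiSC, and these intervals overlapped. Listed d2 PGCLC held 6.48 CPM (3.90 to 10.1), and every other group held at most 4 UMIs. *Evx1*, a homeobox factor of the posterior streak, stood at 29.9 CPM (26.8 to 33.2) in other d2 EB cells, 17.7 CPM (13.2 to 23.2) in listed d2 PGCLC, 4.78 CPM (3.66 to 6.14) in EpiSC and 2.46 CPM (1.52 to 3.75) in other d4 EB cells. It had 0 UMIs in 2i ESC, S+L ESC, d2 EpiLC and d3 EpiLC and 1 UMI in d1 EpiLC.

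*Eomes*, a T-box factor of the anterior streak and of definitive endoderm, was highest in EpiSC at 28.6 CPM (25.7 to 31.7). In the ESC and EpiLC libraries, where *T* stood below 1 CPM, *Eomes* was read at 2.51 CPM in 2i ESC, 2.67 CPM in S+L ESC, 3.46 CPM in d1 EpiLC, 3.41 CPM in d2 EpiLC and 2.34 CPM in d3 EpiLC, with overlapping intervals. In d2 EB it was nearly absent, with 1 UMI among the 446 other cells and 5 UMIs among the 91 listed PGCLC. Listed d4 PGCLC held 4 UMIs in 4 of 44 cells and the other d4 EB cells 1 UMI.

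*Mesp1*, a basic helix-loop-helix factor that marks the first mesoderm to leave the streak, had the opposite distribution. It stood at 102 CPM (96.3 to 108) in other d2 EB cells and at 32.4 CPM (26.2 to 39.6) in listed d2 PGCLC, while every other group held at most 7 UMIs, EpiSC among them with 5 UMIs. Its neighbor *Mesp2*, a factor of the presomitic mesoderm, was highest in S+L ESC at 2.08 CPM (1.29 to 3.18) and d1 EpiLC at 1.55 CPM (0.900 to 2.47) and held 5 UMIs in the other d2 EB cells.

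*Tbx6*, a T-box factor of presomitic mesoderm, stood at 1.79 CPM (1.11 to 2.74) in other d2 EB cells and 1.70 CPM (0.554 to 3.98) in listed d2 PGCLC, and at 0.568 CPM or less in the remaining groups. *Msgn1*, which acts with *Tbx6* in presomitic mesoderm, had 2 UMIs in the whole E14Tg2a table, both in other d2 EB cells, and none in R1. In d2 EB, *T*, *Mixl1*, *Evx1* and *Mesp1* were thus read at far higher levels than *Tbx6*, *Mesp2*, *Msgn1* and *Eomes*.

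The share of cells with a UMI depends on depth, so cells were thinned to 15374 UMIs in E14Tg2a, which left out 4 to 37 shallower cells a library. In 2i ESC, taken as the background (median 33971 UMIs before thinning), 0.897% of 223 cells had a UMI of *T*, 0.448% of *Mixl1*, 1.79% of *Eomes*, 0 of *Mesp1* and 0 of *Evx1*, where 0 cells allow up to 1.35%. In EpiSC (median 31587 UMIs) the shares were 31.3% for *T* (26.6 to 36.4), 24.9% for *Eomes* (20.6 to 29.7), 13.0% for *Mixl1* and 5.82% for *Evx1*. Without thinning they were 40.5%, 33.2%, 18.8% and 11.5%.

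In d2 EB (median 24510 UMIs) 42.2% of 519 cells had a UMI of *Mesp1*, 33.9% of *T*, 31.4% of *Evx1* and 14.6% of *Mixl1*. Without thinning the shares were 49.3%, 40.8%, 45.1% and 19.4%. Over the 8 factors and the 7 libraries other than 2i ESC, the lower limit exceeded the upper limit of 2i ESC in 8 cases: *T*, *Mixl1* and *Evx1* in both EpiSC and d2 EB, *Eomes* in EpiSC and *Mesp1* in d2 EB. How often this holds over all genes is not given here, so the count is a description. At least 1 factor was found in 67.6% of d2 EB cells and 51.0% of EpiSC, against 4.48% of 2i ESC and 6.65% of d4 EB cells, and at least 3 in 16.2% and 6.37% of d2 EB cells and EpiSC.

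**Figure D2:**
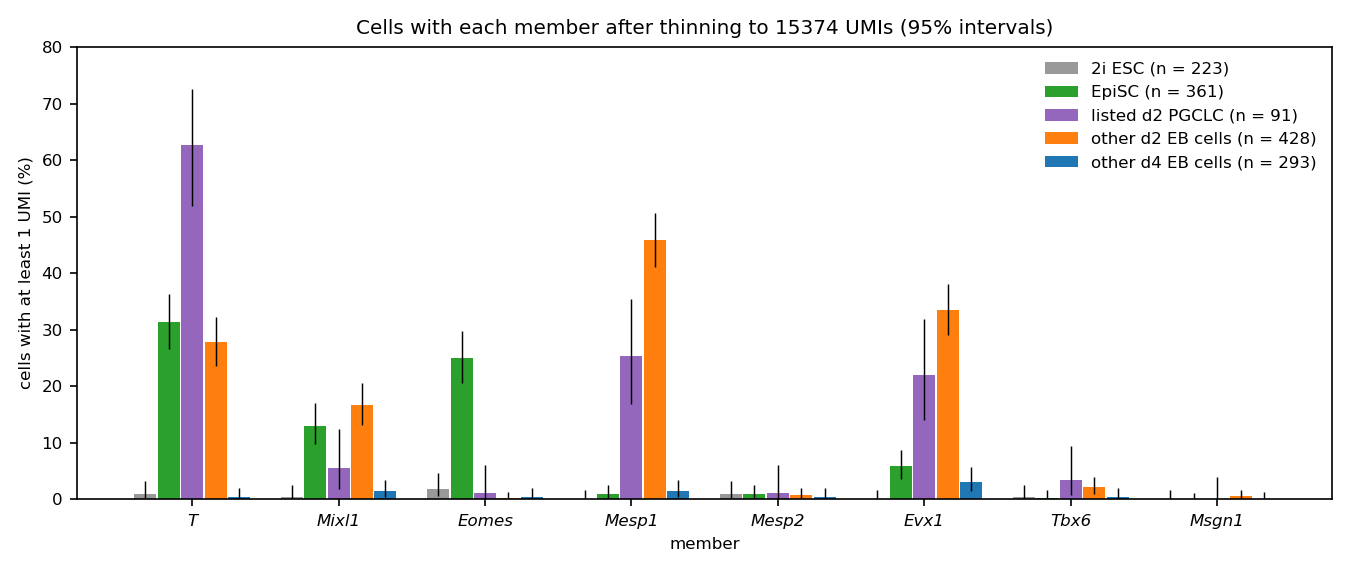
Share of cells with at least 1 UMI of each factor after thinning, in percent, in 2i ESC, EpiSC, listed d2 PGCLC, other d2 EB cells and other d4 EB cells, with exact binomial intervals at 95%. *T* was found in 62.6% of listed d2 PGCLC and 27.8% of other d2 EB cells, *Mesp1* in 25.3% and 45.8%, and *Eomes* in 24.9% of EpiSC.

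The cells richest in a factor held much of its transcripts, and the share that counting alone would give was not computed. In EpiSC 151 of 373 cells held the 1078 UMIs of *T*, with up to 69 UMIs in 1 cell, and the 38 cells with the most *T* held 72.7% of them. Of other d2 EB cells, the 45 with the most *T* held 62.7% of its UMIs and the 45 with the most *Mesp1* held 51.5% of its UMIs, and of listed d2 PGCLC the 10 with the most *T* held 46.0%. *Evx1* was spread more thinly: 117 of the 209 other d2 EB cells with *Evx1* had only 1 UMI of it.

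From d2 EpiLC to other d2 EB cells, 4 of the 6 factors that had at least 10 UMIs over both groups were at least 2-fold higher (with 1 CPM added to both levels), against 14.5% of 13534 genes, and 1 was lower, against 11.6%. *T* was 533-fold higher (95.3 to 21098), *Mesp1* 379-fold (129 to 1842) and *Mixl1* 64.7-fold (21.8 to 317), each over 1 to 3 UMIs in EpiLC. *Evx1* was at least 111-fold higher. *Eomes* was the factor that went the other way, at 0.0854 CPM against 3.41 CPM in d2 EpiLC, 39.9-fold lower (6.74 to 1617). In listed d2 PGCLC the same 4 factors were higher than in d2 EpiLC (background 9.13%) and 0 lower (background 11.3%), with *T* 1415-fold higher (252 to 56032) and *Eomes* at 0.500 times its EpiLC level (0.154 to 1.27).

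The 15 other genes of the streak and nascent mesoderm went with them in the other d2 EB cells. Of 13 with enough UMIs, 12 were higher than in d2 EpiLC and 0 lower, with a median log2 ratio of 3.27 against 0.06 over all genes. The largest were *Hand1*, a factor of lateral and extraembryonic mesoderm, at 942 CPM, *Cdx2*, a posterior homeobox gene, at 257 CPM, and *Gata6*, a mesendoderm factor, at 25.5 CPM. Of the 10 signals of the streak, 5 were higher and 4 lower, with *Bmp4* at 89.4 against 1.43 CPM and the NODAL co-receptor gene *Tdgf1* at 3.58 against 212 CPM. The 4 other T-box genes that could be read were all higher, *Tbx3* at 168 against 1.16 CPM, *Tbx20* at 26.4 CPM and *Tbx2* at 24.2 CPM against 0 UMIs in EpiLC.

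By d4 the factors were largely gone from the EB. From other d2 to other d4 EB cells 0 of the 5 that could be read were higher (background 10.6%) and 5 were lower, against 4.17% of all genes. *T* was 204-fold lower (56.3 to 1691), *Mesp1* 124.6-fold (60.3 to 310.5), *Mixl1* 37.2-fold (14.3 to 138), *Evx1* 12.2-fold (7.83 to 19.9) and *Tbx6* 5.11-fold (1.53 to 26.7). Among the signals 7 of 10 were lower and 0 higher, with *Fgf8* at 0.585 against 99.8 CPM. Of 13 other streak genes 7 were lower and 4 higher, with *Cdx2* at 28.0 against 257 CPM and *Pdgfra* at 53.6 against 5.38 CPM. Of 5 other T-box genes 3 were higher and 0 lower, such as *Tbx4* at 77.2 against 8.96 CPM, and of 8 paraxial mesoderm genes 1 was higher and 1 lower.

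Within d2 EB the listed PGCLC differed from the other cells in which factors they held. Of the 5 factors that could be read, *T* was higher (background 6.06%) and 2, *Mixl1* and *Mesp1*, were lower (background 10.3%). *T* was 2.65-fold higher (2.32 to 3.03), *Mesp1* was 3.15-fold lower (2.55 to 3.92) and *Mixl1* 2.69-fold lower (1.68 to 4.56). *Mixl1* no longer reached 2-fold with 5 CPM added (log2 ratio -0.97) or with PGCLC chosen by at least 3 PGC markers (log2 ratio -0.96), a set of 86 cells of which 68 were listed. *Evx1* was 1.69-fold lower (1.26 to 2.30) and did not reach 2-fold, and *Tbx6* stood at 0.951 times its level in other cells (0.280 to 2.59). After thinning, *T* was found in 62.6% of 91 listed PGCLC (51.9 to 72.6) and in 27.8% of 428 other cells (23.6 to 32.3), *Mesp1* in 25.3% (16.7 to 35.5) and 45.8% (41.0 to 50.6), and *Mixl1* in 5.49% (1.81 to 12.4) and 16.6% (13.2 to 20.5). These 3 pairs of intervals did not overlap, and the share of all genes with such pairs is not given here.

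The mesoderm genes around them were lower in the listed d2 PGCLC. Of 13 other streak and nascent mesoderm genes 8 were lower and 2 higher, *Hand1* at 86.3 against 942 CPM, *Cdx4* at 1.36 against 23.9 CPM and *Gata6* at 2.05 against 25.5 CPM, while *Lhx1* and *Sp5* were the 2 that were higher (named after their values were seen). All 4 other T-box genes were lower, *Tbx2* at 1.02 against 24.2 CPM, *Tbx4* at 0.341 against 8.96 CPM and *Tbx20* at 4.77 against 26.4 CPM. Of the 10 signals, 5 were higher and 2 lower, *Tdgf1* at 55.2 against 3.58 CPM, *Fgf4* at 15.0 against 1.28 CPM and *Bmp4* at 22.5 against 89.4 CPM. Of 7 paraxial mesoderm genes, 2 were higher and 1 lower, led by *Tcf15* at 111 against 14.2 CPM, a gene of the early epiblast as well as of somites. The 6 extraembryonic mesoderm markers summed to 90.01 CPM in the listed PGCLC and 1039 CPM in the other cells, and their part in the differences of the factors was not tested. In d4 EB only *Evx1* had enough UMIs, with 0.948 against 2.46 CPM, so 0 factors were higher (background 8.64%) or lower (background 31.3%). Around it, 1 of 8 other streak genes was higher and 7 lower in the listed d4 PGCLC, with *Hand1* at 1.90 against 245 CPM, and all 5 other T-box genes were lower. Of 7 signals 4 were higher and 3 lower, with *Tdgf1* at 255 against 3.16 CPM.

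Cells with *T* also held other factors at larger shares than cells without it. Among other d2 EB cells after thinning, 72.3% of the 119 cells with *T* had *Mesp1* (63.3 to 80.1), against 35.6% of the 309 cells without *T* (30.3 to 41.2). *Mixl1* was found in 32.8% and 10.4% and *Evx1* in 47.1% and 28.2% of cells with and without *T*. *Tbx6* was found in 9 cells, all of them with *T*, and in 0 of 309 cells without it, which allows up to 0.971%. Both cells with *Msgn1* also had *T*. Of cells with *Mixl1*, 80.3% had *Mesp1* against 38.9% of cells without it.

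Without thinning, the 446 other d2 EB cells divided into 118 with both *T* and *Mesp1*, 40 with *T* only, 117 with *Mesp1* only and 171 with neither, at medians of 22181.5, 23084, 23105 and 27447 UMIs. *Mixl1* stood at 52.7 CPM in the cells with both, 10.0 CPM with *T* only, 11.9 CPM with *Mesp1* only and 3.36 CPM with neither. *Fgf8*, a signal that cells need to leave the streak, was also highest in cells with both (260 CPM) and lowest in those with neither (8.69 CPM), with 152 CPM in cells with *T* only and 90.4 CPM in those with *Mesp1* only. *Bmp4* was highest in the cells with both at 196 CPM and lowest in those with neither at 33.4 CPM, whereas *Hand1* was high in all 4, at 811 to 1123 CPM. Of 16 other d2 EB cells with at least 3 of 6 extraembryonic ectoderm markers, 4 had *T*, 1 had *Evx1* and 0 had *Mesp1*, which allows up to 18.8%. These 16 cells were deeper, at a median of 44796.5 UMIs against 23780 in the cells with fewer markers, and their shares were not thinned.

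In the listed d2 PGCLC, cells with *T* held *Cdx2*, *Fgf8* and *Prdm1* at larger shares than cells without it. After thinning, the 57 cells with *T* had *Cdx2* in 84.2% (72.1 to 92.5) against 26.5% (12.9 to 44.4) of the 34 cells without it, *Fgf8* in 78.9% against 23.5%, and *Prdm1*, the first factor of germ cell specification, in 59.6% (45.8 to 72.4) against 23.5% (10.7 to 41.2). *Dppa3*, a later germ cell gene, was found in 45.6% and 52.9%, with overlapping intervals. The PGC markers *Prdm14* (33.3% and 20.6%), *Nanos3* (26.3% and 17.6%) and *Tfap2c* (63.2% and 58.8%) also had overlapping intervals, and *Dnd1* is not given here. Of the PGC markers given for this split, only *Prdm1* had intervals that did not overlap. *Mesp1* was found in 31.6% and 14.7%, *Evx1* in 29.8% and 8.82% and *Mixl1* in 7.02% and 2.94%, with overlapping intervals for all 3. The naive marker *Zfp42* stood at 109 CPM in listed d2 PGCLC with *T* and 296 CPM in those without, and *Nanog* at 59.7 and 135 CPM.

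**Figure D3:**
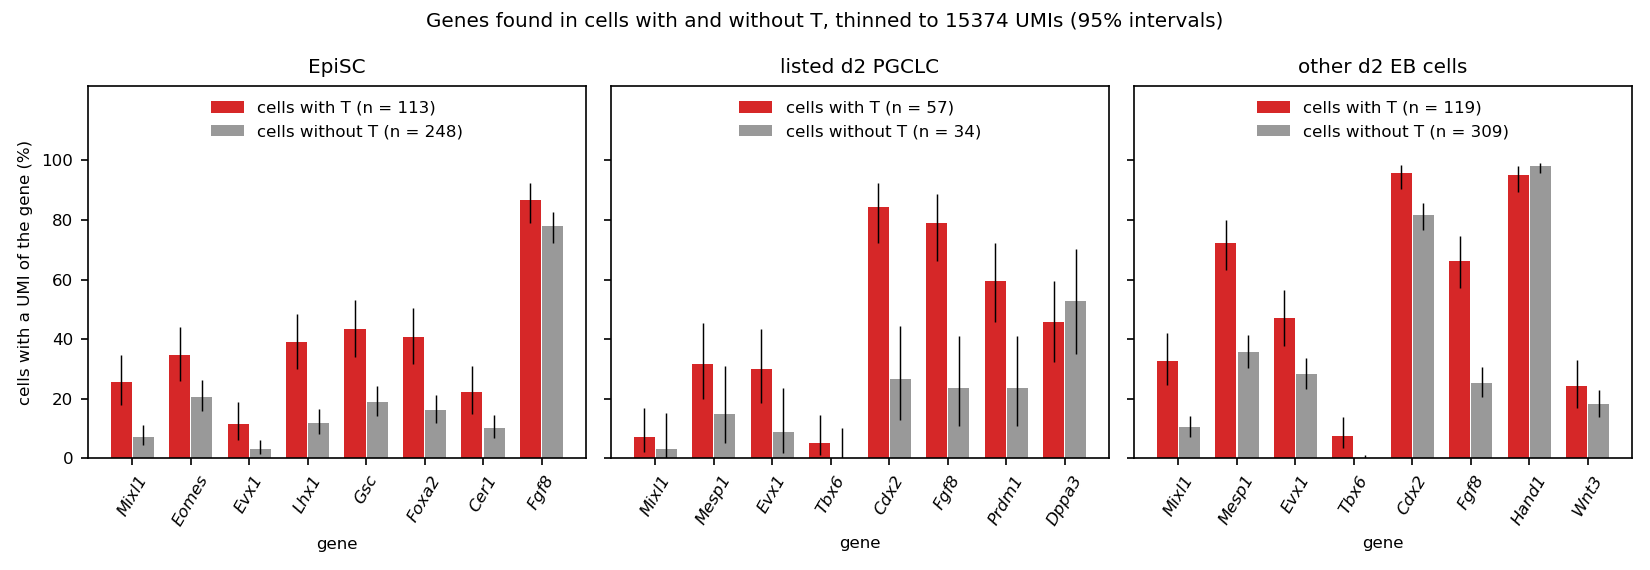
Share of cells, in percent, with a UMI of each gene on the horizontal axis among cells with *T* (red) and without *T* (grey) in EpiSC, listed d2 PGCLC and other d2 EB cells, after thinning, with exact binomial intervals at 95%. *Mesp1* was found in 72.3% of other d2 EB cells with *T* and 35.6% of those without, and in EpiSC *Gsc* was found in 43.4% and 19.0%.

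EpiSC are derived in Activin A and bFGF and are compared with EpiLC as primed and formative cells. Against d2 EpiLC 4 of 5 factors were higher (background 8.47%) and 0 lower (background 6.13%), and against d3 EpiLC the same 4 were higher (background 7.95%) and 0 lower (background 6.37%). *T* was 942-fold (169 to 37258) and 297-fold (116 to 1094) higher, *Eomes* 8.40-fold (6.00 to 12.1) and 12.2-fold (8.54 to 18.0), *Mixl1* 63.2-fold (21.4 to 309) and at least 79.8-fold, and *Evx1* at least 17.8-fold and at least 22.4-fold. *Tbx6* stood at 1.05 times (0.267 to 4.35) and 0.828 times (0.237 to 2.72) its EpiLC levels.

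Other streak genes that were higher in EpiSC included anterior and posterior ones. Of 11 that could be read, 9 were higher than in d2 EpiLC and 0 lower, with *Lhx1* at 70.6 against 0.179 CPM, *Cer1* at 49.4 against 0 CPM and *Gsc* at 61.4 against 0.359 CPM. *Lhx1* and *Gsc* encode homeobox factors of the anterior streak and *Cer1* a secreted NODAL and BMP antagonist. The posterior gene *Cdx2* was also among the 9, at 12.3 against 0.0896 CPM, as was *Sp5*, a WNT target, at 58.1 against 0.807 CPM (both named after their values were seen). The 6 endoderm markers, *Foxa2* and *Cer1* among them, summed to 173 CPM in EpiSC against 1.34 CPM in d2 EpiLC. The extraembryonic mesoderm markers that marked d2 EB summed to 0.313 CPM in EpiSC, and *Hand1* had 0 UMIs. Of the signals, 4 were higher and 3 lower, with *Wnt3* at 38.4 against 4.39 CPM and *Fgf8* at 222 against 38.01 CPM, while *Fgf4* was at 3.84 against 32.8 CPM.

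After thinning, 43.3% of EpiSC with *Eomes* had *T* (32.9 to 54.2) against 27.3% of those without (22.1 to 33.0), with intervals that barely overlapped, and 61.7% of those with *Mixl1* had *T* (46.4 to 75.5) against 26.8% (21.9 to 32.0). Of cells with *Mixl1*, 59.6% had *Eomes* against 19.7%. The anterior genes went with both factors. *Foxa2*, a factor of endoderm and axial mesoderm, was found in 40.7% of EpiSC with *T* and 16.1% without, and in 51.1% of those with *Eomes* and 14.8% without. *Gsc* was found in 43.4% and 19.0% by *T*, and in 58.9% and 15.9% by *Eomes*.

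Without thinning, 65 of 373 EpiSC had both *T* and *Eomes*, 86 *T* only, 59 *Eomes* only and 163 neither, at medians of 38435, 31073.5, 31529 and 29194 UMIs. *Foxa2* stood at 140.4, 20.0, 41.2 and 11.8 CPM in these 4 sets, *Mixl1* at 55.7, 7.22, 17.2 and 1.58 CPM and *Cer1* at 111, 27.2, 97.1 and 9.87 CPM. Cells with *T* only were thus nearer to cells with neither than to cells with both in *Foxa2* and *Mixl1*. *Cdx2* and *Bmp4* were highest in the cells with *T* only, at 25.8 and 18.2 CPM, against 5.82 and 2.55 CPM in the cells with both. The pluripotency gene *Pou5f1* stood at 960 to 1423 CPM in all 4 sets and *Sox2* at 85.9 to 154 CPM.

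S+L ESC were set against 2i ESC as the other state of naive culture. Only *Eomes* and *Mesp2* could be read. *Mesp2* was higher (background 9.73%), with 21 UMIs in 21 of 309 cells against 3 UMIs in 3 of 227 cells, 6.07-fold (1.81 to 31.8), and 0 were lower (background 2.41%). *Eomes* stood at 1.06 times its 2i level (0.583 to 1.96). Of 5 other streak genes 0 were higher and 4 lower in S+L ESC, and of 5 paraxial mesoderm genes 2 were higher, with *Tcf15* at 174 against 46.5 CPM.

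Genes whose levels over the 10 groups of E14Tg2a cells were most like those of 4 of the factors were ranked by Pearson's r of log2(CPM + 1) among 12271 genes. The groups are pooled cells of 8 libraries, and most UMIs of these factors came from EpiSC and d2 EB, so r is a description. For *T* they were *Gm16702* (r = 0.97), *Fzd10*, a WNT receptor gene (0.96), and *Ndufaf4* (0.94). For *Mixl1* they were *Cyp26a1*, which degrades retinoic acid (0.95), *Bmp7* (0.94) and *Fzd10* (0.93), and for *Mesp1* they were *Hes5* (0.98), *Hoxb1* (0.98) and *Cpxm2* (0.97). For *Eomes* they were *Nova1* (0.94), *Lrig3* (0.89) and *Ezr* (0.89). Among the factors themselves, *T* and *Mixl1* had r = 0.95, *Mesp1* and *Evx1* 0.91, *T* and *Mesp1* 0.73 and *T* and *Eomes* 0.18.

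In d4 EB of R1, *T* stood at 4.47 CPM (3.603 to 5.48) in WT and 4.94 CPM (4.07 to 5.94) in dCD, and its intervals overlapped. *Evx1* was at 9.08 CPM (7.83 to 10.5) in WT and 4.98 CPM (4.11 to 5.98) in dCD, and *Eomes* at 2.38 CPM (1.76 to 3.15) and 4.72 CPM (3.87 to 5.70), with intervals that did not overlap for either. *Mesp2* was at 0.243 and 1.14 CPM (5 and 26 UMIs), *Tbx6* at 0.146 and 0.655 CPM (3 and 15 UMIs), *Mesp1* at 0.923 and 0.437 CPM (19 and 10 UMIs) and *Mixl1* at 0.437 and 0.481 CPM (9 and 11 UMIs). E14Tg2a was not compared with R1, since lines, kits and processing differed.

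The levels of dCD over WT were 1.10-fold for *T* (0.832 to 1.47), 0.548-fold for *Evx1* (0.431 to 0.696), 1.98-fold for *Eomes* (1.40 to 2.84), 4.68-fold for *Mesp2* (1.77 to 15.6), 4.50-fold for *Tbx6* (1.27 to 24.2), 0.473-fold for *Mesp1* (0.197 to 1.07) and 1.10-fold for *Mixl1* (0.414 to 3.00). With 1 CPM added to both levels, 0 of the 7 factors were higher past 2-fold (background 6.31%) and 0 lower (background 3.68%). The rule could not call *Mixl1*, *Mesp1*, *Mesp2* or *Tbx6* lower, since each stood below 1 CPM in WT. The intervals of *Eomes*, *Mesp2*, *Tbx6* and *Evx1* did not include 1, but genotype and library cannot be told apart. The backgrounds above hold for the 2-fold rule, and the share of all genes whose interval left out 1 is not given here.

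**Figure D4:**
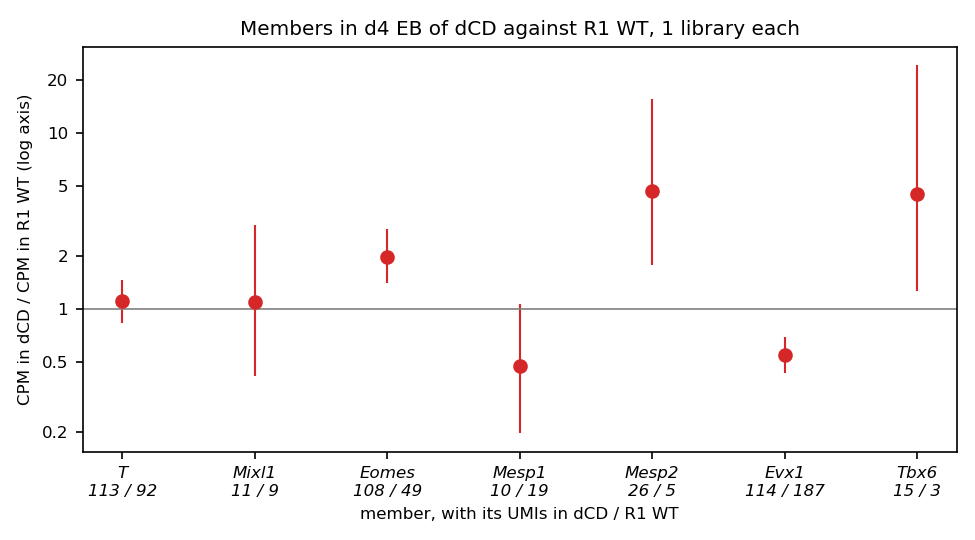
Ratio of the level in dCD to that in R1 WT d4 EB for the 7 factors with UMIs in R1, on a log axis, with exact counting intervals at 95%. The UMIs of each factor in dCD and WT stand under its name. *Eomes* (1.98), *Mesp2* (4.68) and *Tbx6* (4.50) lay above 1 and *Evx1* (0.548) below.

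By the same rule, with 1 CPM added, other genes of the streak passed 2-fold, the lower ones named here from higher WT levels than any factor. Of 14 that could be read 7 were lower and 1 higher in dCD, with *Cdx2* at 4.37 against 27.9 CPM, *Snai1*, a driver of the epithelial to mesenchymal transition, at 10.9 against 47.4 CPM and *Pdgfra*, a receptor of mesoderm cells, at 6.86 against 29.4 CPM. Of 8 signals 4 were higher and 0 lower, led by *Tdgf1* at 314 against 74.9 CPM, *Fgf4* at 33.6 against 7.53 CPM and *Nodal* at 48.1 against 12.0 CPM. The 8 other T-box genes included 0 that were higher and 2 that were lower, *Tbx4* at 4.98 against 101.2 CPM and *Tbx2* at 12.0 against 49.6 CPM. The 6 extraembryonic mesoderm markers summed to 913 CPM in WT and 183 CPM in dCD.

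*Rhox6* and *Rhox9* stood at 110 and 91.3 CPM in dCD against 4.23 and 5.83 CPM in WT, and *Wnt7b* at 6.34 against 2.33 CPM. The other extraembryonic ectoderm markers differed little: *Esx1* at 12.6 against 10.5 CPM, *Ascl2* at 0.961 against 0.923 CPM and *Elf5* with 2 against 0 UMIs. Cells with at least 3 of the 6 extraembryonic ectoderm markers numbered 5 in WT and 72 in dCD. In those 72 cells (median 16978.5 UMIs) *Eomes*, which trophoblast cells also express, was found in 8 cells at 7.51 CPM (3.75 to 13.4), and the other 7 factors had 0 UMIs, which allows up to 2.05 CPM each. In the remaining 1627 dCD cells *Eomes* stood at 4.53 CPM (3.67 to 5.52), against 2.39 CPM (1.77 to 3.16) in the 1411 remaining WT cells. In the same dCD cells *T* stood at 5.27 CPM (4.35 to 6.34). The remaining cells still held 156 dCD and 39 WT cells with 2 of the markers. In E14Tg2a, the 16 other d2 and 24 other d4 EB cells with at least 3 of the markers held 0 UMIs of *Eomes*. This allows up to 4.18 and 2.27 CPM. The part of cells with these markers in the difference of *Eomes* and in the other differences was not tested.

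After thinning to 6831 UMIs, *T* was found in 26 of 1366 WT cells (1.90%, 1.25 to 2.78) and in 40 of 1529 dCD cells (2.62%, 1.88 to 3.55), *Evx1* in 6.81% (5.53 to 8.28) and 3.53% (2.66 to 4.58) and *Eomes* in 1.17% (0.671 to 1.90) and 2.42% (1.71 to 3.32). *Evx1* was the 1 factor whose intervals did not overlap between the libraries, and the share of all genes that do so is not given here. Without thinning the shares of *Evx1* were 10.9% and 4.94%, of *T* 2.68% and 3.30% and of *Eomes* 2.97% and 4.41%. As background, *T* and *Evx1* were found in 0 of the 72 dCD cells with at least 3 extraembryonic ectoderm markers, which allows up to 4.17% at a median of 16978.5 UMIs against 11751 in the library. That limit reflects the few cells counted and is not a measured background: the dCD shares of *T* and, after thinning, of *Evx1* lie under it, while single cells held up to 11 UMIs of *T* and 6 of *Evx1*.

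The few cells with *T* differed from the rest in both genotypes. After thinning, *Fgf8* was found in 65.4% of WT cells with *T* and 1.34% of those without, and in 35.0% and 1.61% of dCD cells. *Evx1* was found in 15.4% of WT cells with *T* (4.36 to 34.9) and 6.64% without, and in 22.5% (10.8 to 38.5) and 3.02% in dCD. *Mesp1* was found in 11.5% and 0.373% in WT and in 2 of 40 and 3 of 1489 cells in dCD. Without thinning, the PGC markers summed to 314 CPM in WT cells with *T* and 103 CPM in those without, but to 79.2 and 105 CPM in dCD, with *Prdm1* at 64.4 against 10.5 CPM in WT and 33.6 against 10.5 CPM in dCD. *Hand1* stood at 105 against 639 CPM in WT and at 146 against 166 CPM in dCD. This difference between the genotypes rests on 38 and 56 cells with *T* from 1 library each and was not tested.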

How the data were processed

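Single-cell RNA-seq had been performed on 10x Genomics libraries, kit version 2 for E14Tg2a and 3 for R1. The deposited values are UMI counts per gene and cell, which the authors made by aligning reads to mm10 (GRCm38) with Cell Ranger. The E14Tg2a libraries were aggregated to equal mapped reads per cell, which the paper does not state for R1. In R1, cells with at least 2000 genes were kept. The annotation behind the E14Tg2a table is not given in the sources used here. Symbols came from GENCODE vM21, which named 27645 of the 27998 identifiers. In E14Tg2a the barcode suffix gave each cell's library, read from the cell list in the study's supplement. Deposited columns of values not used numbered 0.

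UMIs were summed over the cells of each library or listed PGCLC set and scaled to 1000000 (CPM). Exact Poisson intervals, exact conditional intervals for ratios and exact Clopper-Pearson intervals for shares, all at 95%, cover counting error only, and a count of 0 was given a limit of 3 counts. With 1 library per condition no test was run. A gene was read with at least 10 UMIs over both groups and called at 2-fold after adding 1 CPM. Cells were thinned to the 10th percentile of the shallowest library, 15374 UMIs in E14Tg2a and 6831 in R1. Doublets called by Scrublet in scanpy 1.11.5 (0.441% to 7.61% of cells in E14Tg2a, 0.647% and 0.706% in R1) were kept.

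Genes named besides the 8 factors were the 3 most alike ones for *T*, *Eomes*, *Mixl1* and *Mesp1*, the 3 with the largest change in each list and, within cells with and without a factor, genes of the lists and markers. *Nanog*, *Pou5f1* and *Sox2* were also named there, although none of the lists or marker sets held them. The factors and lists were chosen with earlier results of these data known. Alternatives were another pseudocount, no count filter, another scaling, equal weight per cell, other thinning, a minimum of 3000 genes, doublets left out and PGCLC chosen by at least 3 PGC markers. Python 3.11.15, numpy 2.4.6, scipy 1.17.1, pandas 2.3.3 and matplotlib 3.10.9 were used, after tests on simulated data.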

Additional observations from a re-analysis of the deposited data

How the results depend on the processing

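No paired analysis was possible because each condition had 1 library, and for the same reason no replicate could be left out. Of the counts recomputed under the alternatives, 138 were within 1.5 times the main value and 9 were not, where a count of 0 that stayed 0 was taken as within. With a pseudocount of 5 CPM, 1 factor in place of 2 was lower in listed d2 PGCLC than in other d2 EB cells (*Mesp1*), 0 in place of 1 was lower in other d2 EB cells than in d2 EpiLC, and 0 in place of 1 was higher in S+L ESC than in 2i ESC. With a pseudocount of 0.1 CPM, 1 factor was lower in listed d4 PGCLC (*Evx1*) and 2 were higher in dCD than in R1 WT (*Mesp2* and *Tbx6*), in place of 0. With no filter on low counts, 2 factors in place of 1 were higher in listed d2 PGCLC (*T* and *Eomes*) and 1 in place of 0 in listed d4 PGCLC (*Eomes*). With PGCLC chosen by markers, 1 factor was lower at d2 (*Mesp1*). Without thinning, the shares of 2 factors in place of 1 were apart between dCD and R1 WT (*Mesp2* and *Evx1*). Of 317 log2 ratios of single factors, 311 kept their direction and 83 moved beyond the counting interval. Leaving out the 50 most abundant genes moved the median log2 ratio of all genes from -0.46 to -0.30 at d4 between listed PGCLC and other cells. Depth limits *Msgn1*, *Tbx6* and *Mesp2*, and the factors in listed d4 PGCLC, where *Eomes* rests on 4 UMIs against 1 (3.79 against 0.117 CPM, a ratio of 32.4 with an interval of 3.21 to 1597) and the others on 0 or 1 UMI.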
